A study of Mus musculus with 12 samples.

Results

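The myelin genes were 9 genes of the central nervous system myelin sheath and the cells that make it: Mbp, Mobp, Mal, Mag, Mog, Opalin, Cldn11, Cnp, and Ugt8a. They were taken by name, whatever their values, from the probes whose transcript accession maps to these symbols, and they are 9 of the 19648 genes measured. Mbp and Mobp had 3 probes each, and the other 7 genes had 1 probe each. Expression was read on 12 one-colour Agilent mouse arrays, 1 array for each model, each hybridized with a pool of RNA from 3 animals. The cortex group held 4 arrays of prefrontal cortex from C57BL/6 mice aged 1.5, 4, 17, and 22 months. The transgenic hippocampus group held 3 arrays of C57BL/6 mice: an NCSTN line overexpressing a mutated human gene at 10 months, a MAPT line overexpressing the wild-type human gene at 12 months, and 5×FAD mice, which carry mutated human transgenes, APP among them, at 6 months. The ICR hippocampus group held 5 arrays of ICR mice given an agent at 7 weeks of age. Of these, 2 followed injection of 5 or 10 µM amyloid-β (Aβ) into the cerebral ventricles. Another 2 followed streptozotocin at 2.5 or 3 mg/kg by the same route, and 1 followed scopolamine at 1 mg/kg by intraperitoneal injection. Tissue was taken 14 days after Aβ or streptozotocin and 30 minutes after scopolamine. Which promoter drives each transgene is not given in the sources used here, and arrays of normal control mice were not analysed here, so each array can only be set against the others.

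Myelin is the stack of glial membrane that wraps axons, and in the brain it is made by oligodendrocytes. These cells arise from dividing precursors, and once they mature they transcribe a shared set of genes for membrane proteins, adhesion molecules, and lipid enzymes at very high levels. In rodents most forebrain myelin is laid down in the weeks after birth, and myelin is added through adult life, more slowly in cortex than in white matter. In bulk tissue, fewer oligodendrocytes, less adjacent white matter in a dissection, and less RNA per cell cannot be told apart.

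Values below are log2 of the processed signal after quantile normalization over the 12 arrays, and they compare a gene with itself on other arrays, not with other genes. All 13 probes of the 9 genes were well above background on all 12 arrays, and no spot was saturated. The labelled regions were checked against markers: the hippocampal genes Prox1, Zbtb20, Lct, and Fibcd1 were higher on every hippocampus array than on every cortex array, and the cortical genes Tbr1, Rorb, and Cux2 were lower. Fezf2 and Bcl11b of the cortical list were not higher in cortex, and Wfs1 and C1ql2 of the hippocampal list overlapped between regions. The male sex given for the mice went against the 3 transgenic arrays, since Xist, an RNA of female cells, was well above background on 3 of 3 of them and on 0 of the other 9. Region, age, and model are mixed in the comparison of cortex with transgenic hippocampus, where sex may be as well, and region is mixed with strain, age, and treatment in the comparison with ICR hippocampus, so these cannot be told apart. Labels do not say that arrays of a group are separate replicates of 1 condition, so the spread within a group covers ages, transgenes, or agents, and p-values measure only that spread.

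Each of the 9 myelin genes had a lower mean in cortex than in either hippocampus group, while 45.9% of all genes lay below 0 in the comparison with transgenic hippocampus and 51.5% in the comparison with ICR hippocampus. Both comparisons use the same 4 cortex arrays. After adjustment over all genes, Mbp was the myelin gene that passed the test, against ICR hippocampus, and none passed against transgenic hippocampus. The median difference of the 9 genes was -0.59 against transgenic hippocampus, where the median of all genes was 0.035, and -0.45 against ICR hippocampus, where the median of all genes was -0.015. The size ranged from -0.93 for Mal to -0.23 for Mog in the first comparison and from -0.89 for Mal to -0.038 for Mog in the second. Markers of other cells differed between the regions as well. For their counts, 7.45% of all genes were called lower and 9.13% higher in cortex than in transgenic hippocampus. Against ICR hippocampus the shares were 18.1% lower and 18.4% higher. All 3 ependymal genes and 3 of 4 choroid plexus genes were lower in cortex in each comparison, with summed ependymal signals of 1058 to 1470 in cortex, 4753 to 5383 in transgenic, and 2628 to 5723 in ICR hippocampus. Of 5 astrocyte genes 1 was lower in cortex than in transgenic hippocampus, and 2 were lower and 1 higher than in ICR hippocampus. Of 6 neuronal genes 2 were higher in cortex in each comparison, and their summed signal was 169934 to 192636 in cortex, 142791 to 166166 in transgenic, and 130587 to 155126 in ICR hippocampus. The part of these cells in the myelin differences was not tested.

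Among the proteins of compact myelin, Mbp encodes myelin basic protein, which holds the cytoplasmic faces of the membrane together. Its signal in cortex was 10.83 at 1.5 months, 10.73 at 4 months, 10.19 at 17 months, and 10.81 at 22 months. In transgenic hippocampus it was 11.11 for NCSTN, 11.11 for MAPT, and 10.86 for 5×FAD. In ICR hippocampus it was 11.20 and 11.11 for 5 and 10 µM Aβ, 11.29 and 11.19 for 2.5 and 3 mg/kg streptozotocin, and 11.21 for scopolamine. As the mean of its probes, Mbp was therefore lower on all 4 cortex arrays than on all 8 hippocampus arrays, by a gap that was narrow for 5×FAD. Probe A_52_P329451 kept this order, with cortex at most 12.00 and hippocampus at least 12.07. Probes A_52_P604195, at 12.78 in 1.5-month cortex, and A_55_P1992160, at 8.64 in 17-month cortex, overlapped between the regions. With its probes averaged, Mbp was 1 of 9 myelin genes with no overlap, beside 8.06% of all genes. The difference between cortex and ICR hippocampus was -0.56 (95% confidence interval -0.84 to -0.27), or 1.47-fold, with a Benjamini-Hochberg adjusted p from limma of 0.0065. The value averages 3 probes, of which 2 were lower in cortex and 1 differed by 0.11. That made 1 of 9 myelin genes called, where 36.5% of all genes were called and 18.1% were called lower. Without any 1 array of either group, without the filter, with another scaling or background correction, or with the brightest probe, the adjusted p of the gene lay between 0.0039 and 0.016, and 1 of its 3 probes was not called when fitted alone. Against transgenic hippocampus the difference of Mbp was -0.39 (-0.71 to -0.064), with an adjusted p of 0.096, and 0 of 9 myelin genes were called beside 16.6% of all genes, of which 7.45% were lower.

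Mal encodes a proteolipid that sorts membrane rafts into myelin, and it had the lowest difference of the 9 genes in both comparisons. In cortex its signal was 13.23, 14.40, 12.97, and 14.01 at 1.5, 4, 17, and 22 months. In transgenic hippocampus it was 14.27 for NCSTN, 14.38 for MAPT, and 15.11 for 5×FAD. In ICR hippocampus it was 14.86 and 14.06 for Aβ, 14.76 and 14.17 for streptozotocin, each with the lower dose named first, and 14.86 for scopolamine. The cortex array of 4 months reached into both hippocampus groups, whereas the arrays of 1.5, 17, and 22 months lay below all 8 of them. The difference was -0.93 (95% confidence interval -1.74 to -0.13) against transgenic hippocampus, with an adjusted p from limma of 0.10, and -0.89 (-1.59 to -0.18) against ICR hippocampus, with an adjusted p of 0.0502. Against both hippocampus groups in 1 comparison, Mal was lower in cortex by -0.91 on the log2 scale (adjusted p from limma of 0.038) and Mbp by -0.47 (0.012), which made 2 of 9 called beside 30.4% of all genes. Mobp encodes a small basic protein that, like Mbp, lies on the cytoplasmic side of compact myelin. It averaged 9.88 ± 0.83 (SD, n = 4) in cortex, 10.76 ± 0.26 (n = 3) in transgenic hippocampus, and 10.51 ± 0.51 (n = 5) in ICR hippocampus, and neither of its differences, -0.88 and -0.63, was called.

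Mag and Mog encode adhesion glycoproteins of the immunoglobulin family, Mag on the membrane facing the axon and Mog on the outer surface of the sheath. Mag in cortex was 12.58, 13.51, 12.52, and 13.28 at 1.5, 4, 17, and 22 months, and 13.54, 13.77, and 14.32 for NCSTN, MAPT, and 5×FAD. The 4 cortex arrays of Mag lay below the 3 transgenic arrays, as did those of Mbp with its probes averaged. These were 2 of 9 myelin genes, beside 13% of all genes. The difference of Mag was -0.91 (95% confidence interval -1.62 to -0.19), with an adjusted p from limma of 0.082, and the 5 ICR arrays, from 12.98 to 13.89, overlapped those of cortex. Mog, in contrast, averaged 9.64 ± 0.34 (SD, n = 4) in cortex, 9.87 ± 0.25 (n = 3) in transgenic hippocampus, and 9.68 ± 0.26 (n = 5) in ICR hippocampus, with overlap throughout. Its differences of -0.23 (-0.69 to 0.24) and -0.038 (-0.44 to 0.37) were the smallest of the 9 in each comparison. Opalin, a sialylated membrane protein of oligodendrocytes, averaged 8.81 ± 0.91, 9.39 ± 0.27, and 9.20 ± 0.56 in cortex, transgenic hippocampus, and ICR hippocampus, and its cortex arrays spanned more than its differences of -0.58 and -0.39.

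Cldn11 encodes the claudin that seals the layers of the sheath with tight junctions. It was 12.34, 13.17, 12.09, and 12.58 in cortex at 1.5, 4, 17, and 22 months, and 12.87, 13.22, and 14.01 for NCSTN, MAPT, and 5×FAD, so that only the 4-month cortex array overlapped with the transgenic arrays. Its differences were -0.82 (95% confidence interval -1.55 to -0.090; adjusted p from limma of 0.115) and -0.57 (-1.21 to 0.077). Cnp encodes the cyclic nucleotide phosphodiesterase of the cytoplasm-filled channels of myelin, and Ugt8a the enzyme that makes galactosylceramide, its characteristic lipid. Cnp differed by -0.59 (-1.25 to 0.069) and -0.13 (-0.71 to 0.45), and Ugt8a by -0.38 (-1.01 to 0.25) and -0.31 (-0.86 to 0.24). Before adjustment, 4 of 9 myelin genes had p under 0.05 against transgenic hippocampus, all of them lower, beside 32.2% of all genes and 14.5% that were lower, and 2 of 9 against ICR hippocampus, beside 45.8% and 23.1%. The intervals of most genes reach from near 0 to beyond a 2-fold difference, so a p that missed the threshold does not show equal levels. Between transgenic and ICR hippocampus 0 of 9 were called, beside 11.8% of all genes, the lowest adjusted p was 0.31, and at an unadjusted p under 0.05 the count was 0 of 9 beside 29.5%.

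**Figure D1:**
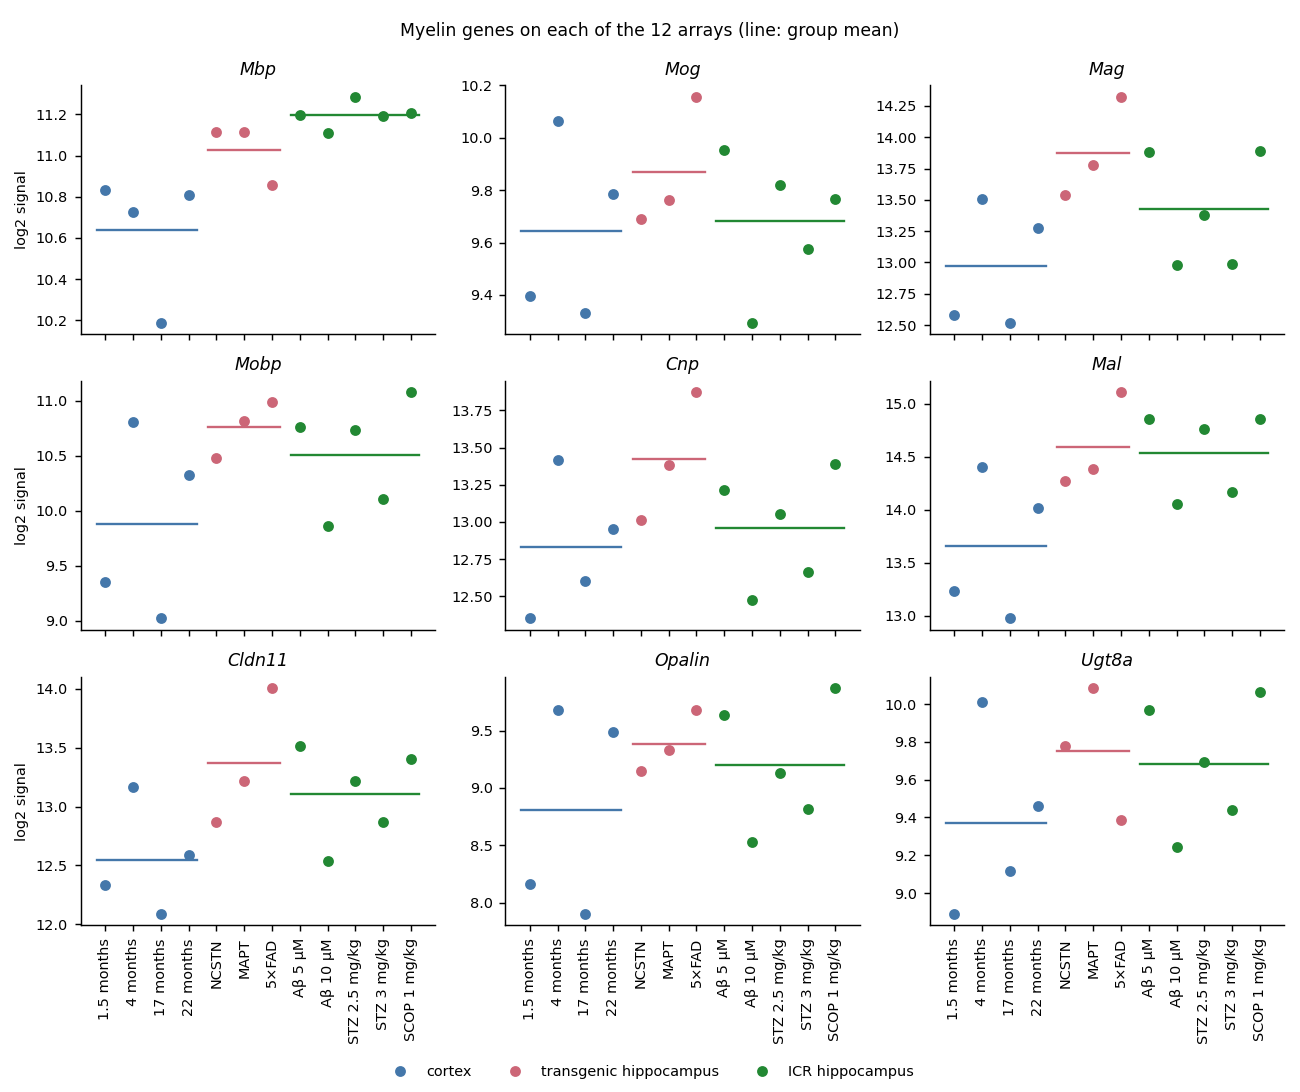
Log2 signal (vertical axis of each panel, own scale) of the 9 myelin genes on the 12 arrays, 1 point per array, with a line at the mean of the cortex (n = 4), transgenic hippocampus (n = 3), and ICR hippocampus (n = 5) arrays. STZ is streptozotocin and SCOP is scopolamine. In 8 of 9 panels the 4-month array is the highest of the cortex arrays, and in all 9 the 10 µM Aβ array is the lowest of the ICR arrays.

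**Figure D2:**
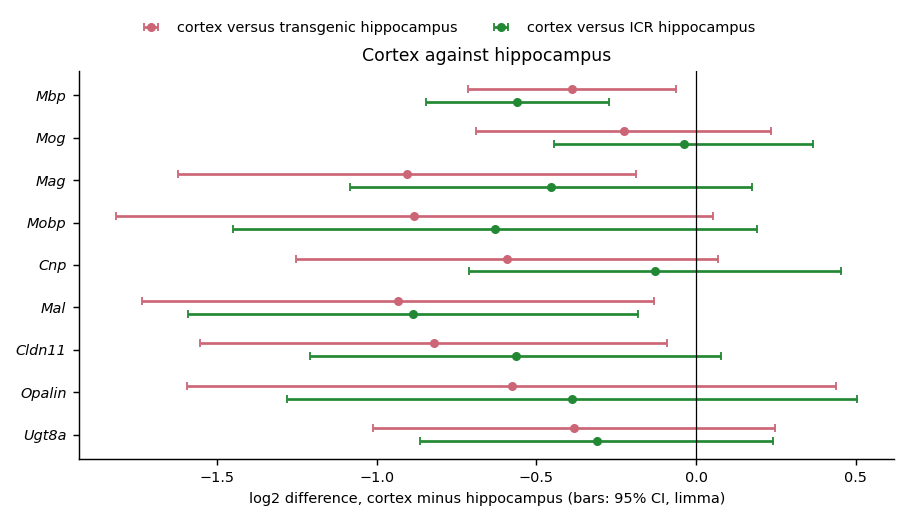
Difference of mean log2 signal between cortex and each hippocampus group (horizontal axis, cortex minus hippocampus) for the 9 myelin genes, with bars for the 95% confidence interval of the limma fit over 12 arrays. All 18 points lie below 0, and the bar of Mbp against ICR hippocampus, from -0.84 to -0.27, belongs to the gene that was called.

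The other genes of the oligodendrocyte lineage were read from lists fixed by function. Of 31 further genes of myelin and mature oligodendrocytes, 8 were lower and 0 higher in cortex than in transgenic hippocampus, beside 7.45% of all genes called lower, with a median difference of -0.75. Among the lower genes were Anln (-1.91), Trf (-1.24), Cd9 (-1.08), Gpr37 (-1.07), Tspan2 (-0.91), Ndrg1 (-0.87), and Ermn (-0.75), where Anln encodes a septin-binding scaffold of myelin and Trf transferrin. Against ICR hippocampus 14 of the 31 were lower, beside 18.1% of all genes, with a median difference of -0.62, among them Gpr37 (-1.51), S1pr5 (-1.32), Anln, Cd9, Tmem125, Tmem88b, Evi2a, Tspan2, Adamts4, Lpar1, Ppp1r14a, Gsn, and Ndrg1. The exception was Apod, an apolipoprotein, which was higher in cortex than in ICR hippocampus by 2.56 (adjusted p from limma of 0.0035). Of 8 enzymes of myelin lipids, 8 had a difference below 0 in each comparison. Aspa, which frees acetate from N-acetylaspartate for lipid synthesis, was lower in cortex than in transgenic hippocampus (-0.92), and 6 enzymes were lower than in ICR hippocampus: Elovl7 (-1.16), Fa2h (-0.90), Aspa (-0.71), Gal3st1 (-0.49), Degs1 (-0.43), and Gltp (-0.35). Fa2h makes the hydroxylated fatty acids of galactosylceramide and Gal3st1 turns it into sulfatide.

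Of 9 transcription factors of the lineage, 1 was lower in cortex than in transgenic hippocampus, where 7.45% of all genes were, and 4 than in ICR hippocampus, where 18.1% were. St18, a zinc finger factor, was lower by -2.73 and -2.92 on the log2 scale, Nkx2-2 by -0.82 and Tcf7l2 by -0.78 against ICR hippocampus. Myrf, the factor that switches on myelin genes in maturing oligodendrocytes, was not well above background on any cortex array. It was well above background on 4 of 5 ICR arrays. Its fitted difference between cortex and ICR hippocampus, -2.23 (adjusted p from limma of 0.0011), therefore rests on undetected cortex signals. With each cortex array set at its dimmest detected probe, or at Myrf's own signal where brighter, Myrf was 3.47-fold higher in ICR hippocampus. That value is an estimate and not a lower bound, since an undetected probe can read brighter than the dimmest detected one. Olig1 and Olig2, expressed through the whole lineage, had differences between -0.22 and 0.10 and were not called. Of 9 genes of precursors and newly formed cells, 2 were lower than in transgenic hippocampus, Neu4 (-0.81) and Vcan (-0.48), and 5 than in ICR hippocampus, Bcas1 (-1.25), Gpr17 (-0.89), Neu4 (-0.89), Vcan (-0.53), and Pdgfra (-0.46). Of 8 genes of the node and paranode, most of which neurons express, Kcna2 was higher in cortex in both comparisons (0.996 and 0.52), and Cntn2 (-0.84) and Cntn1 (-0.38) were lower than in ICR hippocampus. Of 3 measured genes of peripheral myelin, among them Pmp22 and Prx, 0 were called.

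Across the 4 cortex ages the myelin genes other than Mbp followed a shared up and down course, low at 1.5 months, high at 4 months, low at 17 months, and between these at 22 months. The 4-month array was the highest of the 4 for 8 of 9 genes, beside 22.6% of all genes. With the probes of a gene averaged, the 17-month array was the lowest for 7 of 9, beside 29.6%. Mobp probes A_51_P291224 and A_55_P1958793 were lowest at 1.5 months, and Mbp probe A_55_P1992160 was highest at 17 months. For Cnp and Ugt8a the lowest array was that of 1.5 months, beside 27.8% of all genes. From 1.5 to 4 months 5 of 9 genes differed at least 2-fold upward, beside 2.94% of all genes: Opalin by 1.51 on the log2 scale, Mobp by 1.45, Mal by 1.17, Ugt8a by 1.12, and Cnp by 1.07. Cldn11, Mag, and Mog differed in the same direction by 0.83, 0.93, and 0.67, and Mbp by -0.11. With 1 array at each age, none of these steps can be tested.

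Opalin and Mobp spanned the widest range in cortex. Opalin was 8.17 at 1.5 months, 9.68 at 4 months, 7.90 at 17 months, and 9.49 at 22 months. Mobp was 9.36, 10.81, 9.02, and 10.33 at the same ages. The range of Opalin was 3.43-fold and that of Mobp 3.45-fold, wider than in 95.4% and 95.5% of all genes, where the median gene had a range of 0.39 on the log2 scale. For 8 of 9 genes 22 months was lower than 4 months, beside 45.3% of all genes, by between -0.58 for Cldn11 and -0.19 for Opalin. Between 17 and 22 months the signal differed upward in all 9 genes, from 0.34 for Ugt8a to 1.59 for Opalin. From 1.5 to 17 months the differences ran from -0.65 for Mbp, its whole range in cortex, to 0.25 for Cnp.

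Old cortex, as the mean of 17 and 22 months, was set against young cortex, as the mean of 1.5 and 4 months, to ask whether the genes differ with age. The 9 differences were all below 0, beside 46.9% of all genes, with a median of -0.23 and a range from -0.42 for Cldn11 to -0.11 for Cnp. The limma fit called 0 of 9 myelin genes and 0 of 19648 genes in all, which is 0% of them, and at an unadjusted p under 0.05 it held 0 of 9 beside 5.78% of all genes and 2.18% that were lower. The lowest adjusted p of a myelin gene was 0.87. The direction rested on which ages were averaged: without the 4-month array 7 of 9 differences lay above 0, up to 0.53 for Opalin, and without the 17-month array 8 of 9 did, up to 0.57 for Opalin. The 95% confidence interval of Opalin ran from -2.66 to 2.21, and that of Mbp, the narrowest, from -1.03 to 0.46, so 0 calls with 2 arrays a side do not show equal levels.

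Markers of tissue next to the cortex also differed between these 4 arrays. The striatal genes Drd1, Drd2, Adora2a, and Ppp1r1b had a median deviation from the cortex mean of -0.57 at 1.5 months, 0.40 at 4 months, -0.04 at 17 months, and 0.34 at 22 months, and their summed signal was 9132, 13084, 14652, and 13765. The choroid plexus genes Ttr, Folr1, Kl, and Clic6 summed to 49453 at 17 months and to between 138 and 303 at the other ages, led by Ttr at 15.57 against 5.11 to 6.85. All 4 markers of each list were measured. Whether the share of striatum, white matter, or ventricle in a dissection had a part in the myelin values was not tested.

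**Figure D3:**
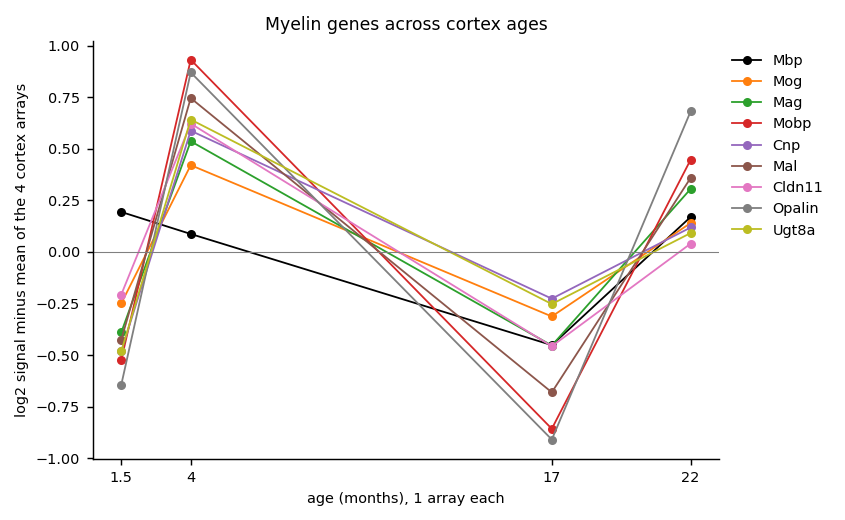
Log2 signal of each myelin gene minus its mean over the 4 cortex arrays (vertical axis) against age in months (horizontal axis), 1 array per age. Of the 9 lines, 8 peak at 4 months and 7 are lowest at 17 months, and Mbp, in black, is highest at 1.5 months.

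In transgenic hippocampus, probes of a gene being averaged, the 5×FAD array was the highest of the 3 for 7 of 9 myelin genes, beside 37.1% of all genes. It was the lowest for Mbp and Ugt8a, beside 46.3%. The NCSTN array was the lowest for the same number, 7 of 9, beside 24.7%. Set against the mean of NCSTN and MAPT, 5×FAD differed by 0.96 for Cldn11, 0.78 for Mal, 0.67 for Cnp, 0.67 for Mag, 0.44 for Opalin, 0.43 for Mog, and 0.35 for Mobp, and by -0.26 for Mbp and -0.54 for Ugt8a. The median was 0.44, where that of all genes was -0.055, and 0 of 9 reached 2-fold, beside 10.7% of all genes. Against NCSTN alone Cldn11 differed by 1.14, or 2.20-fold. The 3 models have 1 array each and differ in age, so these values carry no test, and model and age cannot be told apart. Ugt8a was 9.78 for NCSTN, 10.09 for MAPT, and 9.39 for 5×FAD, and so was lowest on the 5×FAD array. Mbp was lowest there only as the mean of its probes. Its probe A_55_P1992160 was lowest on 5×FAD (7.36 against 8.51 and 8.45), but A_52_P329451 was highest (12.63 against 12.25 and 12.11). A_52_P604195 was 12.59 for NCSTN and 5×FAD and 12.78 for MAPT. Mobp probe A_51_P291224 was lowest on 5×FAD (11.33 against 11.58 and 11.78), while A_55_P1958793 and A_55_P1958798 were highest.

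The other lists were also read on these arrays. All 8 enzymes of myelin lipids were highest on the 5×FAD array, and 19 of the 31 further myelin and mature genes were, beside 37.1% of all genes. At least 2-fold higher than the mean of NCSTN and MAPT were Klk6 (1.94), a secreted protease, Cd9 (1.65), a tetraspanin, and Gsn (1.23), gelsolin, while Apod was lower (-2.62). Of 9 precursor genes 7 were highest on 5×FAD, with Bcas1 at 0.98 and Gpr17 at 0.87, while Tnr (-0.70) and Sox6 (-0.49) were lowest. Of 9 transcription factors 6 were highest on 5×FAD, while Olig1 (-0.28) and Olig2 (-0.34) were lowest. The microglia genes Cx3cr1, Csf1r, P2ry12, Tmem119, and Aif1 were also highest there, with a summed signal of 24713 against 9744 for NCSTN and 9540 for MAPT, and the astrocyte gene Gfap was 13.12 against 11.84 and 10.81. Whether these cells have a part in the values of myelin genes was not tested.

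In ICR hippocampus 10 µM Aβ gave the lowest signal of the 5 arrays for 9 of 9 myelin genes, beside 16.8% of all genes. That count uses the mean of the 3 probes of Mbp and of Mobp, and the mean of Mbp spanned 0.18 on the log2 scale over these arrays. Mobp probe A_51_P291224 was lowest at 3 mg/kg streptozotocin, at 10.83 against 10.91 with 10 µM Aβ. Mbp probes A_52_P604195 and A_55_P1992160 were lowest after scopolamine, at 12.71 and 7.92 against 12.90 and 8.35 with 10 µM Aβ. Opalin was 9.63 at 5 µM and 8.53 at 10 µM Aβ, 9.13 and 8.81 at 2.5 and 3 mg/kg streptozotocin, and 9.87 after scopolamine. Mobp was 10.76 and 9.86 with Aβ, 10.74 and 10.10 with streptozotocin, and 11.08 after scopolamine. Within each injected agent the higher dose was the lower of the pair for both genes, and the scopolamine array was the highest.

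As the mean of its probes, each of the 9 genes kept that order between doses. For Mbp it rested on probe A_52_P329451, from 12.74 to 12.07 with Aβ and from 12.61 to 12.12 with streptozotocin. Its probe A_52_P604195 was higher at the higher dose, from 12.87 to 12.90 and from 12.90 to 12.96. Probe A_55_P1992160 was higher as well, from 7.99 to 8.35 and from 8.34 to 8.50. From 5 to 10 µM Aβ the difference ran from -1.10 for Opalin and -0.98 for Cldn11 through -0.90 for Mag and Mobp, -0.80 for Mal, -0.74 for Cnp, -0.72 for Ugt8a, and -0.66 for Mog to -0.091 for Mbp, where 45.7% of all genes were lower. From 2.5 to 3 mg/kg streptozotocin it ran from -0.64 for Mobp and -0.60 for Mal to -0.092 for Mbp, again 9 of 9, where 47.7% of all genes were lower. Each dose has 1 array, so a difference between doses and one between pools of animals cannot be told apart. The further lists moved the same way between the Aβ doses for 29 of 31 myelin and mature genes, 7 of 8 lipid enzymes, 9 of 9 transcription factors, and 8 of 9 precursor genes, but for 2 of 8 node and paranode genes. Between the streptozotocin doses the higher dose was lower for 27 of 31 myelin and mature genes and 7 of 8 lipid enzymes, but for 4 of 9 transcription factors and 3 of 9 precursor genes. Markers of other cells were also lower at 10 than at 5 µM Aβ, in 5 of 5 astrocyte and 3 of 3 endothelial genes, with 3 of 5 for microglia and 2 of 6 for neurons. The summed astrocyte signal was 24472 at 5 µM and 22299 at 10 µM, and the part of such differences in the myelin values was not tested.

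The mean of the Aβ arrays was compared with that of the streptozotocin arrays, which asks whether the agents differ. For the myelin genes this difference ran from -0.11 to 0.25, with a median of -0.014, and 6 of 9 lay below 0, beside 56.8% of all genes. The fit called 0 of 9 and 0 of 19648 genes, or 0%, and at an unadjusted p under 0.05 it held 0 of 9 beside 12.6% of all genes and 5.66% that were lower. For Mag, at the top of this range, the 95% confidence interval was -0.97 to 1.46, so 0 calls do not show equal levels. The choroid plexus genes were low on both streptozotocin arrays, with a summed signal of 3120 and 5081 against 177462 to 187401 on the other 3. Scopolamine lay above the mean of the other 4 arrays for 9 of 9 myelin genes, beside 48.3% of all genes. The differences ran from 0.012 for Mbp and 0.11 for Mog to 0.71 for Mobp and 0.84 for Opalin, and 0 of 9 reached 2-fold, beside 5.1%. For Mbp the sign rested on probe A_52_P329451, since probes A_52_P604195 and A_55_P1992160 were lowest on the scopolamine array. Of the 31 further genes 30 lay above as well, and Enpp2, which both oligodendrocytes and choroid plexus express, exceeded 2-fold (1.62), its signal on the streptozotocin arrays being 13.59 and 13.61 against 16.85 to 17.05 on the other 3. Scopolamine was given 30 minutes before dissection and the other agents 14 days before, by another route. Agent, time, route, and age at dissection therefore cannot be told apart.

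**Figure D4:**
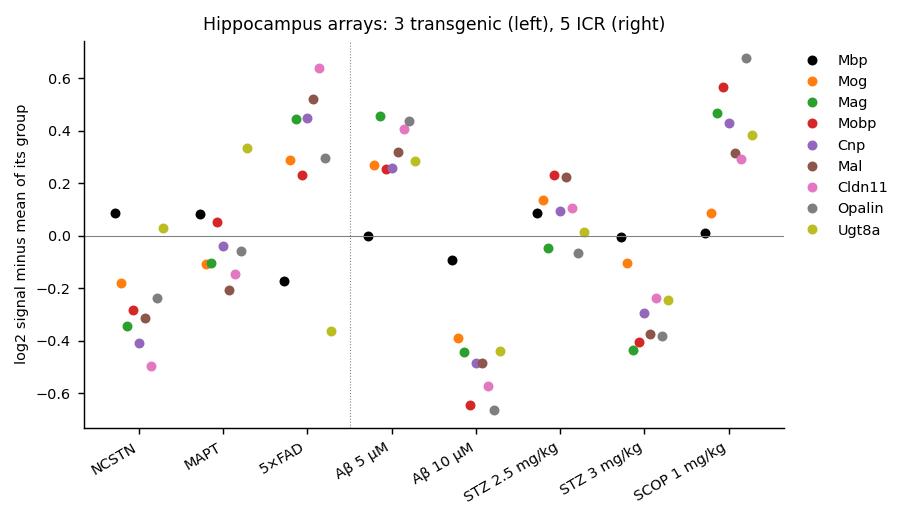
Log2 signal of each myelin gene minus the mean of its group (vertical axis) on the 3 transgenic and 5 ICR hippocampus arrays (horizontal axis), 1 point per gene and array. All 9 points lie below 0 for 10 µM Aβ and for 3 mg/kg streptozotocin, and 7 of 9 lie above 0 for 5×FAD.

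Mbp stood apart because its 3 probes did not move together. Probe A_52_P329451 read 11.14, 12.00, 9.79, and 11.91 in cortex at 1.5, 4, 17, and 22 months, 12.25, 12.11, and 12.63 for NCSTN, MAPT, and 5×FAD, and between 12.07 and 13.00 in ICR hippocampus. Probe A_52_P604195 read 12.78, 12.25, 12.13, and 12.33 in cortex, and between 12.59 and 12.96 on the 8 hippocampus arrays. Probe A_55_P1992160 read 8.58, 7.93, 8.64, and 8.19 in cortex, 8.51, 8.45, and 7.36 in the transgenic group, and between 7.92 and 8.50 in ICR hippocampus. The first probe had the course of the other myelin genes. Among cortex arrays the second was highest at 1.5 months and lowest at 17 months. The third ran opposite to the first and was lowest for 5×FAD. Over the 12 arrays, after the group means were subtracted, their correlations with the mean of the other 8 myelin genes were 0.84, -0.35, and -0.80, as a description over arrays that share their groups. Fitted probe by probe, cortex minus ICR hippocampus was -1.30 (adjusted p from limma of 0.032), -0.49 (0.012), and 0.11 (0.76), and 2 of the 13 myelin probes were called, beside 33.3% of all probes. Against transgenic hippocampus the differences were -1.12, -0.28, and 0.23, and 0 of 13 probes were called, beside 12.6%. The gene has several transcripts, and the probe sequences were not used here, so which of them each probe reads is not given.

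The probes of Mobp agreed better. Probe A_55_P1958798 read 11.70, 12.83, 10.24, and 12.34 in cortex at 1.5, 4, 17, and 22 months, A_51_P291224 read 10.27, 11.73, 10.46, and 11.30, and A_55_P1958793 read 6.10, 7.87, 6.38, and 7.34. All 3 peaked at 4 months, but only A_55_P1958798 was lowest at 17 months. A_51_P291224 and A_55_P1958793 were lowest at 1.5 months. In the order given above, the correlations of the 3 probes with the mean of the other 8 genes were 0.92, 0.81, and 0.96. At 17 months the first of them lay 2.05 below the mean of the other ages, and the other two lay 0.64 and 0.73 below. Mbp probe A_52_P329451 lay 1.89 below at the same age, which left 1 probe of each gene with a steep drop on that array. On the 5×FAD array A_55_P1958798 was 1.01 above the mean of NCSTN and MAPT, whereas A_51_P291224 differed by -0.35.

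**Figure D5:**
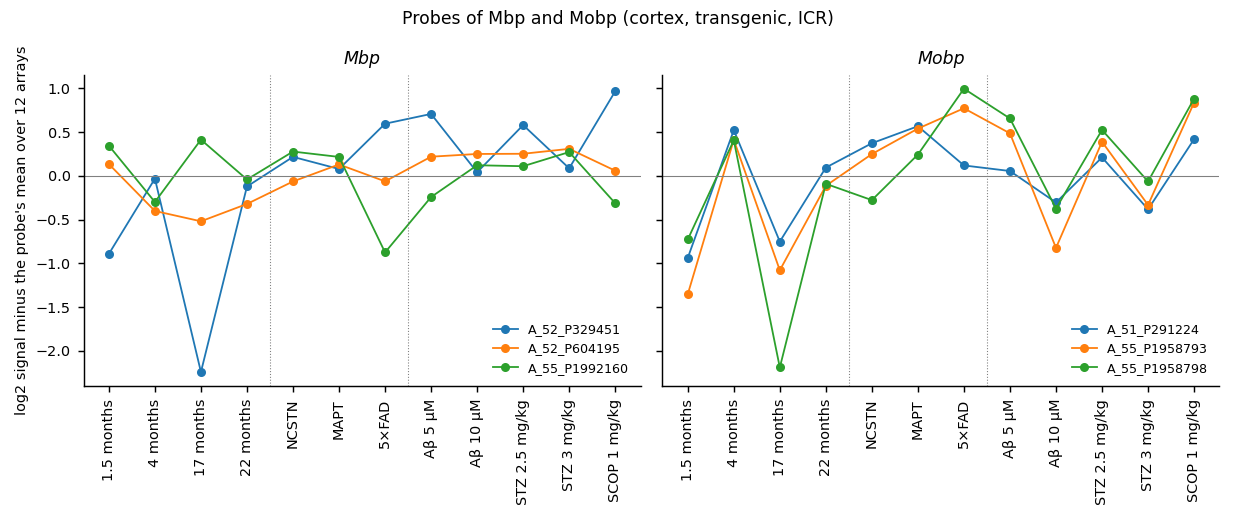
Log2 signal of each probe of Mbp (left) and Mobp (right) minus that probe's mean over the 12 arrays (vertical axis), by array (horizontal axis, dotted lines between the cortex, transgenic, and ICR groups). The 3 Mbp probes part at 17 months, where they read 9.79, 12.13, and 8.64, and on 5×FAD, and the 3 Mobp probes share their highest cortex value at 4 months.

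The myelin genes other than Mbp varied together from array to array. After the mean of each group was subtracted, the Pearson correlation over the 12 arrays had a median of 0.92 over the 28 pairs without Mbp, none below 0.51, while the 8 pairs with Mbp lay between 0.032 and 0.45. Opalin and Mobp (0.97), Mal and Mog (0.97), and Mal and Mobp (0.95) were the closest, Ugt8a correlated with the other genes but Mbp between 0.51 and 0.79, and Cnp had the lowest value with Mbp. The arrays are few and share dissections and hybridizations across genes, so these values describe the arrays. Among 14011 other genes well above background on all 12 arrays, the 10 closest to the mean of the 9 genes were Tnfaip6 (0.96), Pllp (0.96), Cmtm5 (0.96), Septin4 (0.95), Prr18 (0.95), Cerox1 (0.95), Rnf13 (0.95), Tmem125 (0.94), Plekhb1 (0.94), and Fa2h (0.94). With any 1 array left out the lowest of these correlations was 0.92, for Fa2h without the 4-month cortex. Pllp encodes plasmolipin, a myelin proteolipid, and Pllp, Septin4, Tmem125, and Fa2h were already on the fixed lists.

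Because the genes moved together, their promoters are shown for 4 of them, chosen for matches to the binding words of factors that act in oligodendrocytes. RefSeq sequences (GRCm38.p6) were held for 8 of the 9 genes, all but Mbp, and the 250 bases before the transcription start were searched on both strands for ACAAAG (other strand CTTTGT), the core bound by SOX factors such as Sox10, for CTGGCAC or CTGGTAC, bound by Myrf, and for CAGCTG, an E-box. In the windows shown no match overlapped another. The 8 genes have 10 promoters, 3 of them those of Mag. The SOX word was in 5 of the 10 (4 genes: Mobp, Cnp, Mag, and Opalin), beside 16.5% of 32807 promoters, the Myrf word in 4 of 10 (3 genes: Mog, Cnp, and Mag), beside 5.92%, and the E-box in 0 of 10, beside 13%. The windows of 2 of the 3 Mag starts overlap, so they share bases. Mobp held 6 copies of the SOX word, and its window is chr9:120149492-120149741 on the plus strand. The others are Cnp at chr11:100574689-100574938 on the plus strand, Mag at chr7:30914923-30915172 on the minus strand for the start farthest upstream of 3, and Mog at chr17:37023399-37023648 on the minus strand. Capitals mark the SOX and Myrf words, read 5′ to 3′ on the strand of the gene.
Mobp: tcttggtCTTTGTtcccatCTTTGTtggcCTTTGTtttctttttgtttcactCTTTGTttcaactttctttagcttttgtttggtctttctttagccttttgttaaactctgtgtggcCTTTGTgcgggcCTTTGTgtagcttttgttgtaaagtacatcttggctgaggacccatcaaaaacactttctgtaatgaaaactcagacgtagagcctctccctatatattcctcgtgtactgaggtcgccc
Cnp: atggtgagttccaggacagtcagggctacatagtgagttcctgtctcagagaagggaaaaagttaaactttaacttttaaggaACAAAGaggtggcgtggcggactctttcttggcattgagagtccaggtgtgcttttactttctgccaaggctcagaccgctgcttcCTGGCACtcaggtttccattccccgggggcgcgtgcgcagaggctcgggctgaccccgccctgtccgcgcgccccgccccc
Mag: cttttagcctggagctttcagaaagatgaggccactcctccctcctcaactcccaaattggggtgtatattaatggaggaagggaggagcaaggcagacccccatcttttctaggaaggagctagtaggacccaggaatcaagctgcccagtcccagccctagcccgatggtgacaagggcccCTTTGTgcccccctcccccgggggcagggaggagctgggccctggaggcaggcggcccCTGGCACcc
Mog: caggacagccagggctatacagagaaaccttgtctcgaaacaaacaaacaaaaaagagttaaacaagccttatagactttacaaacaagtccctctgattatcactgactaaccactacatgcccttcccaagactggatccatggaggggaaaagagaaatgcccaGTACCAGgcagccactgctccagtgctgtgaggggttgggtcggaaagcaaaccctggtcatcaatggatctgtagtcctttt
Cnp and Mag hold 1 SOX and 1 Myrf word each in the windows shown, and Mog holds 1 Myrf word. A match is a description of the letters, and binding was not measured.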

How the data were processed

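Gene expression was measured with Agilent whole-genome mouse arrays, 1 for each of 12 models. The authors deposited Feature Extraction output with a spot-by-spot intensity, which was not normalized between arrays, and a matrix of processed intensity values. Arrays have no depth, so precision depends on how many there are. The labels name Cy5, while the deposited columns are those of the green channel.

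The deposited processed signal was put on the log2 scale. Between 110 and 234 outlier spots were dropped from each array, and spots that share a probe were averaged. As in the methods of the study, a probe was kept where its foreground was 1.4 times the local background or more, here on all 12 arrays. The 36520 probes kept of 39429 were quantile normalized. Accessions were matched to the RefSeq gene table of GRCm38.p6, which named 69.8% of the probes, and probes of a gene were averaged.

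Groups came from the labels. Region was tested with limma 3.58.1 in R 4.3.3 in a fit of 12 arrays in 3 groups, old against young cortex on 4 arrays, and Aβ against streptozotocin on 5, with Benjamini-Hochberg adjustment over 19648 genes and a threshold of 0.05. Comparisons of 1 array against others have no test, and a difference of 2-fold was counted. The fits were tested on simulated data. The members and lists were chosen with earlier results of these data known. Genes named were the 9 members, list genes called or at least 2-fold different, and the 10 genes most correlated with the members. Olig1, Olig2, and the 5×FAD values of Bcas1, Gpr17, Tnr, and Sox6 were added after their values were seen. Some genes of the lists are not reported here.

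The alternatives were scaling to the 75th percentile, no filter, normexp with an offset of 50, the deposited matrix (for comparisons within cortex and within ICR arrays, since its other columns were normalized apart), the brightest probe, each array left out, the 7 C57BL/6 arrays alone, a slope on age, the spread of all 12 arrays, and a 2-fold limit. Both hippocampus groups together, transgenic against ICR hippocampus, a fit per probe, and a fit without the 1.5-month cortex and 5×FAD arrays were alternatives chosen after seeing the data. Slide and scan are not given in the headers used here, so neither was used as a block.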

Additional observations from a re-analysis of the deposited data

Results flagged for a closer look

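Of 18 groups of 4 or 5 arrays tested for a high or low array, over the 9 myelin genes, 1 held an array farther from the rest than Dixon's 95% limit. Mbp at 17 months of cortex was 10.19, below the other 3 cortex arrays at 10.73 to 10.83, with a gap of 0.835 of the range of the group. Chance flags about 1 in 20 such groups. The value comes mostly from probe A_52_P329451, which read 9.79 there, 1.89 below the mean of the other ages, while the other 2 probes lay 0.32 below and 0.41 above. The same array had Ttr at 15.57. Without it, Mbp differed between cortex and ICR hippocampus by -0.41, with an adjusted p from limma of 0.0043, within the range of 0.0039 to 0.016 over the alternatives that give the gene 1 value. Fitted alone, its 3 probes had adjusted p from limma of 0.032, 0.012, and 0.76.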

How the results depend on the processing

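Of the comparisons between regions, Mbp against ICR hippocampus as the mean of its probes kept its direction under each alternative run, and its call under each but a 2-fold limit. Fitted probe by probe, 2 of its 3 probes were called (adjusted p from limma of 0.032 and 0.012) and the third was not, at 0.11 (0.76). The number of myelin genes called against ICR hippocampus was 2 instead of 1, with Mal added, after scaling to the 75th percentile, with normexp, and with the brightest probe, 0 with a 2-fold limit added, and 1 to 2 with an array left out (2 without the 4-month cortex or without 10 µM Aβ). Against transgenic hippocampus it was 0 to 0 with an array left out, and 2 with both hippocampus groups together. Mog against ICR hippocampus was 0.041 with normexp and -0.18 to 0.066 with an array left out, Cnp -0.32 to 0.031, and Mog against transgenic hippocampus was 0.00053 without the 1.5-month cortex and 5×FAD arrays.

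Old against young cortex changed direction with an array left out: Mbp -0.59 to 0.029, Mog -0.51 to 0.16, Mag -0.61 to 0.32, Mobp -1.14 to 0.32, Cnp -0.64 to 0.43, Mal -0.91 to 0.26, Opalin -1.02 to 0.57, and Ugt8a -0.72 to 0.40. As a slope per month Mag was 0.00198, Cnp 0.00135, and Opalin 0.00696. The number of genes at least 2-fold different was 1 instead of 0 for 5×FAD with the brightest probe (Mobp), and 0 to 1 with an array left out for 5×FAD (Cldn11 without MAPT) and for scopolamine (Opalin without 5 µM Aβ). The causes of these shifts were not tested. No paired analysis was possible because replicate numbers were given in accession order and pair no arrays. The deposited matrix was not run for comparisons across groups or for 5×FAD, nor slide or scan as a block. With 1 array per model and 2 residual degrees of freedom within cortex or ICR arrays, the precision of these comparisons is low.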
